A study of Mus musculus with 47 samples.

Results

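Daxx S226A lung was compared with wild-type littermate lung in mouse embryos at E18.5, shortly before birth, by RNA sequencing. The comparison rested on 8 of the 47 libraries of the study: 4 lungs homozygous for the knock-in allele (Daxx S226A/S226A) and 4 wild-type lungs, 1 of each genotype from each of 4 litters, with every gene of the count table as the object of description. Litters are numbered 1 to 4 below in the order 2972, 2881, 2875 and 2970. The other libraries were liver and brain of the same litters, and lung, liver and brain of embryos homozygous for Daxx Y130A with their own wild-type littermates. No embryo was treated. The allele was made with CRISPR in C57BL/6N zygotes, carried additional silent base changes around the codon, and was crossed to C57BL/6J before heterozygous parents were intercrossed. It is present in every cell of the embryo, so a difference in lung could arise in lung or in the blood that reaches it, and RNA of whole lung does not separate these.

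Daxx is a chaperone of the histone variant H3.3, which it places on chromatin together with the remodeller Atrx, mainly at repeats and other silent regions. The S226A change removes binding of Daxx to H3.3, and the Y130A change removes binding of Daxx to Atrx. For Y130A the study left an incomplete loss possible, as some replicates showed a faint ATRX band. The changed serine codon lies in exon 3 of Daxx on the plus strand of chromosome 17 (GRCm38, codon at chr17:33911688-33911690). The reference coding sequence around it, chr17:33911643-33911732, is shown because it is the site at which the groups differ by design, with the serine codon in capitals. It is the reference sequence and not that of the edited allele.
Daxx serine codon: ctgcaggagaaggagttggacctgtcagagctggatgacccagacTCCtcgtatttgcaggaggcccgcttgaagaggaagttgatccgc

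The fetal lung just before birth consists of alveolar epithelium that has begun to make surfactant, airway epithelium, endothelium and mesenchyme. It also holds macrophages seeded from yolk sac and fetal liver, monocytes, neutrophils, a few lymphocytes and, as it is full of blood, many red cells. Macrophages depend on signals through the receptor Csf1r, whereas neutrophils mature through granule stages marked by distinct sets of granule proteins.

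The lung libraries held 15722147 to 18958006 counts (wild-type) and 18018978 to 21512763 counts (S226A), summed over 20456 genes. Surfactant and alveolar type 2 transcripts were abundant in every library, with a summed normalized count of 275510 to 352270 in wild-type and 265760 to 343140 in S226A lungs. Y-linked transcripts showed 2 male and 2 female lungs in each group, with the sexes matched within each litter, and 0 Y-linked genes were called. Wild-type lungs varied more among themselves than S226A lungs. Over 13946 genes with a mean of at least 20 normalized counts, the median SD of the log2 value was 0.24 among wild-type and 0.16 among S226A lungs, and the wild-type SD was the larger for 70.6% of genes. The deviations of 3 of the 4 wild-type lungs also varied with the GC content of the transcripts, with a Spearman correlation across genes of -0.27, -0.27, 0.08 and 0.44 in the 4 wild-type lungs and values between -0.11 and 0.15 in the S226A lungs. Genes called lower in S226A had a median GC content of 53.9%, those called higher 46.6%, and all tested genes 49.9%. The part of this spread in the results was examined by leaving out each library and by a correction for GC content, and the calls that either of these ended are given below for the genes described.

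Of 16892 genes tested, 317 (1.88%) were called at an adjusted p below 0.05 by the quasi-likelihood test of edgeR, 144 higher (0.852%) and 173 lower (1.02%) in S226A lung. The lower genes included receptors of macrophages and monocytes (Csf1r, Cx3cr1 and Ccr2), and the higher genes included neutrophil granule genes (S100a8, S100a9 and Mmp8), embryonic globins (Hbb-y and Hba-x) and the class I gene H2-Q7. Most called changes were small: the median fold was 1.47 for the higher and 1.64 for the lower genes, and 46 and 52 genes, respectively, exceeded 2-fold. Under the stringent criteria of the study (adjusted p below 0.01, more than 2-fold, SE below 1) 51 genes (0.302%) remained, 25 higher and 26 lower, and none of the 51 showed any overlap between the 2 groups of lungs. Non-overlapping groups were seen for 192 of the 317 called genes and for 644 of all tested genes (3.81%), 2.09% of tested genes being higher and 1.72% lower in S226A lung. At the edge of the threshold, Slc22a23 (adjusted p = 0.0492) and Spic (0.050) passed, and Rad51ap1 and Prtg (0.0503 each) did not.

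The number of genes called depended on the fit. With the litter as a block it was 612 (3.62%; 342 higher, 2.02%, and 270 lower, 1.6%), of which 291 were among the 317. With the 8 lungs fitted alone it was 34 (0.232%, with 0.109% higher and 0.123% lower), of which 33 were among the 317, and with the 15 lungs of both alleles 65 (0.423%, with 0.13% higher and 0.293% lower), of which 62 were. Leaving out 1 library gave from 135 genes (without S226A replicate 2) to 1423 (without wild-type replicate 2). None of the 317 genes changed sign under any of these fits. Of the named genes that these fits tested, 45 lost their call with only the 8 lungs and 43 with the 15 lungs. Losses in the fits of the 8 and the 15 lungs are given below for a few genes only. A set of 26 genes was called in every fit, 12 higher and 14 lower. The higher ones were Hmox1, Mmp9, Fcna, S100a8, S100a9, Olfm4, Mmp8, Stfa1, Retnlg, Hba-x, Hbb-y and H2-Q7. The lower ones were Fcrls, Olr1, Pik3ap1, Wdfy4, Cx3cr1, Csf1r, Mpeg1, Rassf4, Pld4, Laptm5, Csf2rb, Sla, Sirpa and Axl.

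**Figure D1:**
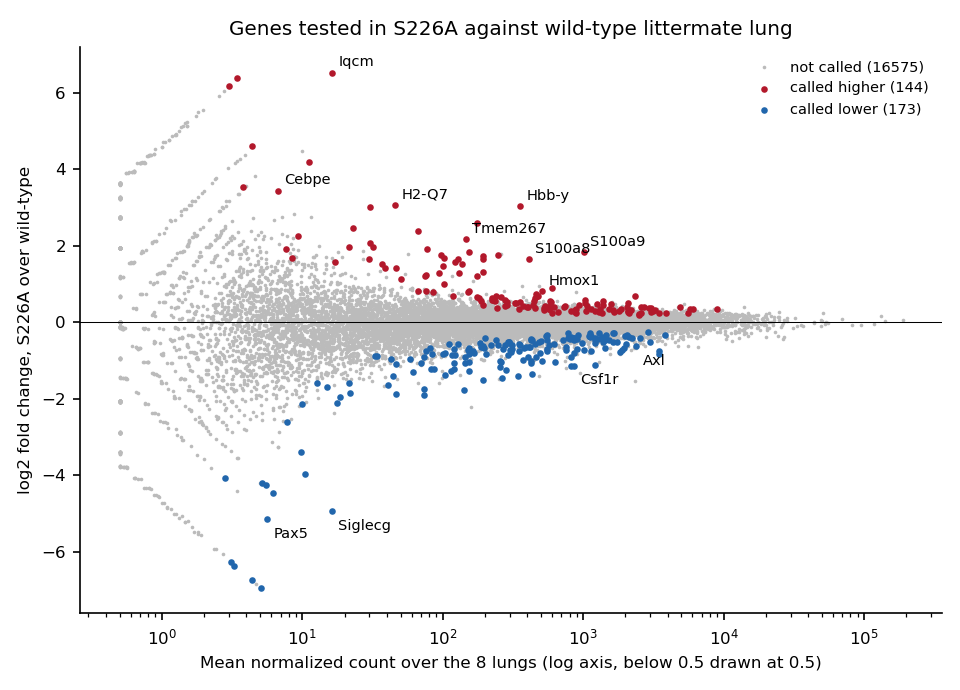
Log2 fold change of S226A over wild-type littermate lung (vertical axis) against the mean normalized count over the 8 lungs (horizontal log axis) for the 16892 genes tested, each point a gene. The 144 genes called higher are red, the 173 called lower blue, and the changes furthest from 0 belong to genes with few counts.

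Csf1r, the receptor for the growth factors that macrophages need to survive, had the lowest adjusted p of the macrophage list. Its normalized counts were 1207, 1139.8, 1191 and 1205 in the 4 wild-type lungs and 521, 612, 531 and 499 in the 4 S226A lungs, and the level fell from 1186 ± 31.5 (SD, n = 4) to 541 ± 49.4 (SD, n = 4), with no overlap between the groups (log2 fold change -1.13, SE 0.074, edgeR adjusted p = 5.2e-14). Cx3cr1, the fractalkine receptor of resident macrophages and some monocytes, measured 476, 421, 362 and 333 in the 4 wild-type lungs and 162, 209, 145 and 153 in the 4 S226A lungs (log2 fold change -1.25, SE 0.19, edgeR adjusted p = 4.3e-05). Every S226A lung was again below every wild-type lung. Axl, a receptor with which macrophages take up dying cells, was at 2868, 2728, 3127 and 2898 in the 4 wild-type lungs and 1864, 1800.0, 1999 and 1846 in the 4 S226A lungs (log2 fold change -0.63, SE 0.079, edgeR adjusted p = 1.6e-06). Axl, which other lung cells also express, changed least of the 3 genes, and its groups too were separate.

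Of the 22 genes of the macrophage list, 6 were called lower (Csf1r, Adgre1, Cx3cr1, Cd163, Siglec1 and Axl), 1 was called higher (Marco) and 15 did not pass. The median log2 fold change of the list was -0.22, compared with 0.00 over all tested genes. Adgre1, which encodes the F4/80 antigen, fell by 0.58 on the log2 scale (edgeR adjusted p = 0.046), Siglec1, the sialoadhesin of tissue macrophages, by 1.05 (edgeR adjusted p = 0.047), and Cd163, the receptor that clears haemoglobin bound to haptoglobin, by 1.37 (edgeR adjusted p = 0.0068). The groups overlapped for Siglec1 and for none of the other 5. Adgre1 was not called without wild-type replicate 1, 3 or 4 or S226A replicate 2, 3 or 4 (edgeR adjusted p 0.051 to 0.16). Siglec1 was not called without wild-type replicate 1, 3 or 4 or S226A replicate 2, 3 or 4 (edgeR adjusted p 0.057 to 0.23), nor with the GC correction (0.087) or no filter on low counts (0.053). Cd163 was not called without S226A replicate 4 (edgeR adjusted p 0.051), nor with the 8 lungs alone (0.40) or the 15 lungs (0.091). The summed level of the list was 15137 to 17166 in wild-type and 13914 to 14435 in S226A lungs, 2 ranges that did not overlap. In bulk RNA, fewer macrophages and less of these transcripts per macrophage cannot be told apart. With the 8 lungs alone, 3 of the list were called lower and 0 higher.

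Of 21 genes of myeloid signalling and of the phagocyte oxidase, 4 were called lower (Laptm5, Coro1a, Cybb and Itgb2), 1 was called higher (Itgam), and the median was -0.28. Laptm5, a lysosomal protein of blood cells, measured 666, 708, 689 and 652 in the 4 wild-type lungs and 347, 297, 376 and 323 in the 4 S226A lungs (log2 fold change -1.02, SE 0.10, edgeR adjusted p = 1.8e-09). Cybb, the catalytic subunit of the phagocyte oxidase, was at 1091, 976, 765 and 555 in the 4 wild-type lungs and 496, 466, 317 and 363 in the 4 S226A lungs (log2 fold change -1.05, SE 0.15, edgeR adjusted p = 2.3e-05). Neither gene overlapped between the groups, although the wild-type values of Cybb were the more scattered. Itgam, which encodes Cd11b, an integrin alpha chain of neutrophils and monocytes, went the other way, at 31.3, 15.5, 19.4 and 9.45 in the 4 wild-type lungs and 51.6, 51.3, 60.3 and 56.1 in the 4 S226A lungs (log2 fold change 1.52, SE 0.25, edgeR adjusted p = 2.0e-04). The beta chain Itgb2, with which it pairs, fell by 0.47 on the log2 scale (edgeR adjusted p = 0.035). Itgb2 was not called without wild-type replicate 1 or S226A replicate 3 or 4 (edgeR adjusted p 0.055 to 0.11), nor with the GC correction (0.060).

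Further phagocyte genes, chosen after their values were seen, were also lower. Mpeg1, which encodes the pore-forming protein perforin-2, was at 2053, 1765, 1553 and 1207 in the 4 wild-type lungs and 880.3, 712, 734 and 734 in the 4 S226A lungs (log2 fold change -1.10, SE 0.14, edgeR adjusted p = 3.5e-06). Ctss, the cathepsin that processes class II antigen complexes, measured 1431, 1299.7, 947 and 782 against 624, 574, 428 and 413 (log2 fold change -1.13, SE 0.17, edgeR adjusted p = 3.7e-05). The fitted levels fell 2.15-fold and 2.19-fold, and neither gene overlapped between the groups. Fcrls, a marker of microglia and some other resident macrophages, measured 271, 207, 225.8 and 170.1 against 61.4, 98.5, 55.2 and 42.8 (log2 fold change -1.76, SE 0.34, edgeR adjusted p = 0.0016), and Olr1, a receptor for oxidized lipoprotein, 115, 117, 123 and 99.2 against 40.0, 36.2, 32.1 and 27.6 (log2 fold change -1.74, SE 0.26, edgeR adjusted p = 3.4e-05). Pik3ap1, an adaptor that links receptors to PI3K in myeloid and B cells, measured 360.0, 359, 416 and 405 against 167, 122, 128 and 147 (log2 fold change -1.45, SE 0.13, edgeR adjusted p = 1.3e-09). Csf2rb, the signalling chain shared by the receptors for GM-CSF, IL-3 and IL-5, measured 416, 448, 563 and 552 against 241, 270.3, 245 and 236 (log2 fold change -0.99, SE 0.16, edgeR adjusted p = 2.0e-04), and the inhibitory receptor Sirpa 1904, 1609.8, 1759 and 1773 against 1295, 986, 1025 and 1134 (log2 fold change -0.67, SE 0.089, edgeR adjusted p = 5.2e-06). Of these 7 genes, all but Ctss were among the 14 that were lower in every fit, and the groups were separate for each. Among the 10 lowest fold changes by the stringent criteria were also Kynu, an enzyme of tryptophan breakdown, Gna15, a G protein subunit of blood cells, and Avpr1a, a vasopressin receptor, at log2 fold changes of -2.12, -1.91 and -1.95. Avpr1a was not called with the 8 lungs alone (edgeR adjusted p 0.596) or the 15 lungs (0.205).

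**Figure D2:**
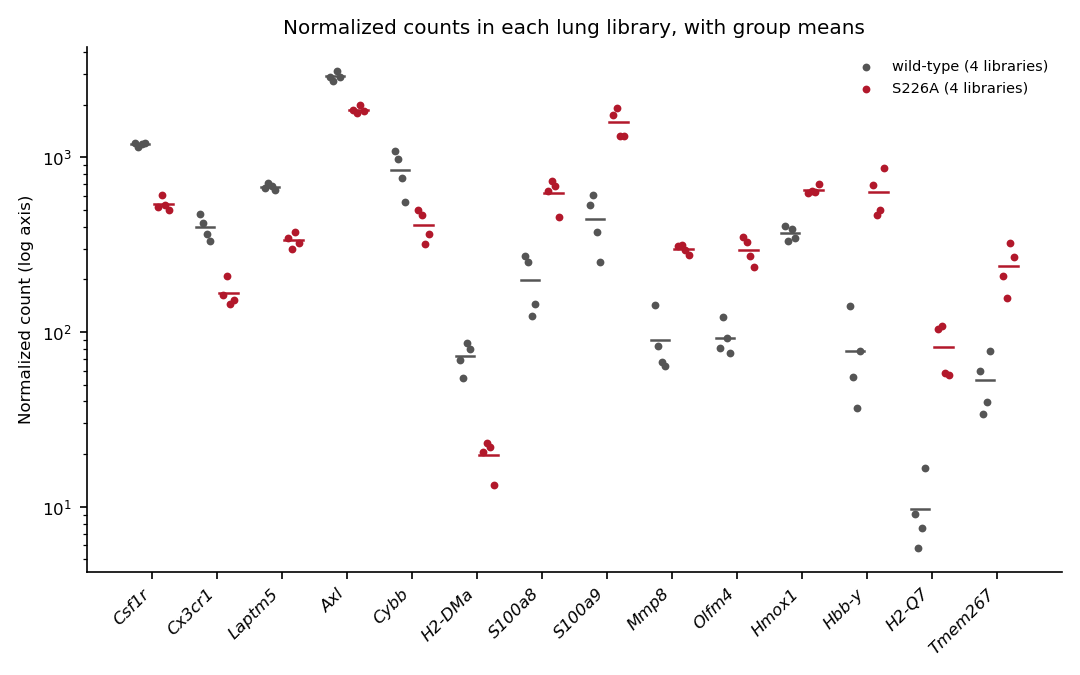
Normalized counts (vertical log axis) of 14 genes in each of the 4 wild-type (grey) and 4 S226A (red) lung libraries, each point a library and each bar a group mean. For none of the 14 genes do the groups overlap, with the first 6 lower and the other 8 higher in S226A lung.

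Monocyte and antigen-presenting cell genes were divided. Of 8 monocyte genes, Ccr2, the receptor by which monocytes leave the marrow for tissue, was called lower, at 675, 590.2, 340.3 and 391 in the 4 wild-type lungs and 262, 231, 161 and 109 in the 4 S226A lungs (log2 fold change -1.39, SE 0.23, edgeR adjusted p = 2.4e-04). Chil3, a lectin of monocytes, macrophages and maturing neutrophils, was called higher, at 186, 79.5, 106 and 76.8 against 445, 187, 243 and 236 (log2 fold change 1.31, SE 0.31, edgeR adjusted p = 0.016). The groups were separate for both genes, and the list had a median of 0.50. Ccr2 was not called with the 8 lungs alone (edgeR adjusted p 0.136). Chil3 was not called without wild-type replicate 3 or 4 or S226A replicate 1 (edgeR adjusted p 0.060 to 0.099), nor with DESeq2 (0.072).

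All 7 MHC class II genes had negative estimates, with a median of -0.83, and 1 of them passed. H2-DMa, which loads peptide onto class II molecules, measured 68.8, 54.3, 86.4 and 80.3 in the 4 wild-type lungs and 20.5, 23.1, 22.1 and 13.4 in the 4 S226A lungs (log2 fold change -1.87, SE 0.27, edgeR adjusted p = 2.3e-05), and every S226A lung was below every wild-type lung. H2-Aa, a class II alpha chain, measured 91.0, 114, 117 and 78.0 against 47.1, 10.1, 60.3 and 16.9 (log2 fold change -1.57, edgeR adjusted p = 0.058, and 0.031 with the litter as a block). Of 6 dendritic cell genes tested, 1 was called lower, with a median of -1.10. That gene, Siglech of plasmacytoid dendritic cells, had 34 counts in wild-type and 0 in S226A lungs, a level at least 12.7-fold lower when the S226A group is set at a floor of 3 counts in all. Siglech was not called without S226A replicate 2 or 4 (edgeR adjusted p 0.054 to 0.064). Of its counts, 21 came from wild-type replicate 2. The other 5 dendritic cell genes did not pass, and the summed level of the list overlapped between groups, at 825 to 1042 in wild-type and 809 to 1003 in S226A lungs.

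Of 16 neutrophil genes, 8 were called higher in S226A lung (S100a8, S100a9, Mmp8, Mmp9, Retnlg, Ngp, Camp and Csf3r), 7 of them without overlap (all but Camp), and 1 lower (Fpr2). The median of the list was 1.08 on the log2 scale, and its summed normalized count was 1961 to 3089.8 in wild-type and 4312 to 5704 in S226A lungs. S100a9, a subunit of calprotectin and the main cytosolic protein of neutrophils, measured 537, 608, 376 and 252 in the 4 wild-type lungs and 1757, 1923, 1326 and 1333 in the 4 S226A lungs (log2 fold change 1.83, SE 0.24, edgeR adjusted p = 3.9e-06). Its partner S100a8 was at 274, 252, 123 and 145 in the 4 wild-type lungs and 638, 728, 686 and 454 in the 4 S226A lungs (log2 fold change 1.65, SE 0.23, edgeR adjusted p = 1.1e-05). Every S226A lung exceeded every wild-type lung for both. Mmp8, the collagenase of specific granules, measured 144, 83.4, 67.0 and 63.8 in the 4 wild-type lungs and 310.3, 314, 294 and 274 in the 4 S226A lungs (log2 fold change 1.73, SE 0.21, edgeR adjusted p = 1.0e-06). Mmp9, the gelatinase stored in late granules, measured 71.8, 64.0, 48.6 and 59.1 against 207, 175, 211 and 137 (log2 fold change 1.58, SE 0.21, edgeR adjusted p = 5.5e-06), and Retnlg, a secreted resistin-like protein of neutrophils, 35.4, 38.8, 29.2 and 24.8 against 145, 122, 101 and 119 (log2 fold change 1.91, SE 0.28, edgeR adjusted p = 3.0e-05). The fitted levels of the last 3 genes rose 3.31-fold, 2.99-fold and 3.77-fold. Ngp was not called without wild-type replicate 3 or 4 or S226A replicate 2 (edgeR adjusted p 0.070 to 0.11), nor with DESeq2 (0.075). Camp was not called without wild-type replicate 3 or 4 or S226A replicate 2 (edgeR adjusted p 0.066 to 0.15). With the 8 lungs alone, 5 of the list were called higher.

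Earlier granulocyte genes were few among the calls. Of 9 precursor genes, 8 had positive estimates, with a median of 0.82, and 1 passed. Cebpe, the factor needed for the step from promyelocyte to later stages, measured 3.03, 0, 0 and 1.18 in the 4 wild-type lungs and 11.6, 11.1, 14.1 and 12.5 in the 4 S226A lungs (log2 fold change 3.44, SE 0.70, edgeR adjusted p = 0.0037), from 4 counts in all in wild-type lungs. Replicate 1 held 3 of these, and without it the fitted log2 fold change of Cebpe was 4.81. Olfm4, an olfactomedin of a subset of neutrophils that was chosen after its values were seen, measured 80.9, 121, 92.9 and 75.6 in the 4 wild-type lungs and 349, 329, 273 and 234 in the 4 S226A lungs (log2 fold change 1.67, SE 0.18, edgeR adjusted p = 1.0e-07). Fpr2, a receptor for formylated peptides shared by neutrophils and macrophages, was lower, at 85.9, 98.9, 56.2 and 65.0 against 45.4, 39.2, 44.2 and 30.3 (log2 fold change -0.95, SE 0.26, edgeR adjusted p = 0.044, and 0.050 with the litter as a block, which ends the call). Fpr2 was not called without wild-type replicate 1, 2 or 4 or S226A replicate 1, 2 or 4 (edgeR adjusted p 0.051 to 0.15), nor with no filter on low counts (0.052). Of 16 genes of eosinophils, mast cells and basophils, 1 was called lower (Ear2, an eosinophil-type ribonuclease) and 0 higher.

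The stefin A genes, a cluster on chr16:36156811-36455392 that encodes cytosolic inhibitors of cysteine proteases expressed in neutrophils, were chosen after their values were seen. Of 9 genes of the cluster, 8 were called higher, and 7 of these did not overlap between groups. The log2 fold changes were 1.30 (BC100530) to 2.48 (2010005H15Rik) without BC117090, which had 2 counts in wild-type and 30 in S226A lungs, a ratio of 13.4 with a 95% counting interval of 3.41 to 116. Stfa1 measured 99.1, 76.6, 48.6 and 40.2 in the 4 wild-type lungs and 249.9, 299, 224 and 195 in the 4 S226A lungs (log2 fold change 1.85, SE 0.26, edgeR adjusted p = 1.1e-05), Stfa2 59.7, 64.0, 24.8 and 24.8 against 174, 142, 146 and 139 (log2 fold change 1.77, SE 0.28, edgeR adjusted p = 1.2e-04) and Stfa3 28.3, 15.5, 19.4 and 22.4 against 147, 145, 116 and 42.8 (log2 fold change 2.39, SE 0.56, edgeR adjusted p = 0.016). The groups were separate for all 3. Stfa3 was not called without wild-type replicate 3 or S226A replicate 2 (edgeR adjusted p 0.056 to 0.062). BC117090 lost its call with the litter as a block (edgeR adjusted p = 0.054). BC100530 was not called without wild-type replicate 3 or 4 or S226A replicate 1 (edgeR adjusted p 0.067 to 0.080). BC117090 was not called without wild-type replicate 1 or 4 or S226A replicate 2, 3 or 4 (edgeR adjusted p 0.059 to 0.14), nor with the GC correction (0.063) or no filter on low counts (0.054). Both wild-type counts of BC117090 were in replicate 3, and its fitted log2 fold change, which is no bound, was 3.55 with that replicate and 6.43 without it. 2010005H15Rik was not called without S226A replicate 2 (edgeR adjusted p 0.075). The genes are near copies, so reads could be shared among them, and their changes are not independent. The 250 bases before the starts of 3 members (RefSeq, GRCm38.p6) are shown because these genes moved together, with a run of 15 bases that all 3 hold in capitals.
Stfa1 (chr16:36276898-36277147, + strand): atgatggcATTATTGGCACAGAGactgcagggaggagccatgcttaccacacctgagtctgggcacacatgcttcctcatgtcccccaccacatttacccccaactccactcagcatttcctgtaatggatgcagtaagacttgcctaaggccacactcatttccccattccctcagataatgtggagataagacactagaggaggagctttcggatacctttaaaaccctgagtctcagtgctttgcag
Stfa2 (chr16:36408364-36408613, - strand): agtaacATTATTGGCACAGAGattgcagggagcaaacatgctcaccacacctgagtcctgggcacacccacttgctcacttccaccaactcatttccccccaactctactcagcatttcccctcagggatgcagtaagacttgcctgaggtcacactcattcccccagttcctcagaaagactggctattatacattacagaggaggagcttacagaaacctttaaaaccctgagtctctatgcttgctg
Stfa3 (chr16:36455393-36455642, - strand): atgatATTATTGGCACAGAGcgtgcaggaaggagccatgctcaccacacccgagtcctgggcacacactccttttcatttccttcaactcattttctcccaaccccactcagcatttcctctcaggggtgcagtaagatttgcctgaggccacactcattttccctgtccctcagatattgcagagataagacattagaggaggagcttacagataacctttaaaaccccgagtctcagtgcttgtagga
Identity in pairwise alignment was 80.8% to 83.7%.

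C/EBP factors and PU.1 both act in myeloid cells, and short forms of their motifs were searched on both strands of these 250-base promoters. TTGCNNAA, a form of the C/EBP motif, was present in 10.8% of 27025 promoters. It was found in 4 of the 7 neutrophil genes called higher that had a promoter (S100a9, Ngp, Retnlg and Mmp8) and in 1 of 4 stefin genes with a promoter (Stfa1). Of the 10 genes called lower from the macrophage and myeloid signalling lists, 6 had a promoter, and 0 of these held it. GAGGAAGT, a form of the PU.1 motif, was present in 2.79% of all promoters and in 2 of the 7 neutrophil genes (S100a8 and Mmp8), 0 of the 4 stefin genes and 0 of the 6 lower genes. A match or its absence says nothing of binding.

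Several further genes of macrophages and of heme and iron handling were picked because they rose, except Marco, which is in the macrophage list, so they say nothing of heme or iron genes in general, and Cd163, the haemoglobin receptor, was lower. Hmox1, which breaks down heme, measured 403, 331, 389.9 and 344 in the 4 wild-type lungs and 625, 640.2, 631 and 700.3 in the 4 S226A lungs (log2 fold change 0.82, SE 0.11, edgeR adjusted p = 1.0e-05). Slc40a1, the iron exporter ferroportin, was at 531, 521, 441 and 389.9 in the 4 wild-type lungs and 668, 840.2, 751 and 534 in the 4 S226A lungs (log2 fold change 0.57, SE 0.12, edgeR adjusted p = 0.0052). Neither overlapped between groups. Spic, the factor of red pulp and other iron-recycling macrophages, measured 0, 6.78, 4.32 and 1.18 against 1.78, 17.1, 18.1 and 24.9 (log2 fold change 2.26, SE 0.63, edgeR adjusted p = 0.050), Cd5l, a secreted protein of tissue macrophages, 12.1, 5.82, 16.2 and 0 against 32.9, 59.3, 24.1 and 21.4 (log2 fold change 1.96, SE 0.53, edgeR adjusted p = 0.041), and the lectin Fcna, made by macrophages, 85.9, 59.1, 54.0 and 47.3 against 230.3, 174, 224 and 147 (log2 fold change 1.65, SE 0.24, edgeR adjusted p = 2.5e-05). Marco, a scavenger receptor and the only gene of the macrophage list called higher, measured 89.0, 80.4, 58.3 and 41.3 against 163, 131, 135 and 119 (log2 fold change 1.01, SE 0.24, edgeR adjusted p = 0.017). In that list 5 genes had positive estimates, among them Marco and Vsig4 (0.98, not called). The groups overlapped for Spic and not for the other 5 genes. Slc40a1 was not called without S226A replicate 2 (edgeR adjusted p 0.062). Spic was not called without wild-type replicate 1, 3 or 4 or S226A replicate 2, 3 or 4 (edgeR adjusted p 0.068 to 0.18), nor with the GC correction (0.065) or no filter on low counts (0.059). The log2 fold change of Spic was 3.03 without wild-type replicate 2. Cd5l was not called without wild-type replicate 4 or S226A replicate 1 or 2 (edgeR adjusted p 0.062 to 0.23). Marco was not called without wild-type replicate 3 or 4 or S226A replicate 1 (edgeR adjusted p 0.055 to 0.087).

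Transcripts of B cells, which are few in fetal lung, were at low levels in both groups. Of 17 B lineage genes, 5 were called lower (among them Pax5, Ms4a1, Siglecg and Fcrla) and 0 higher, and the list median was -0.65, also with genes at 0 set at their bounds. The other 12 did not pass, and 5 of them had positive estimates, the highest being Igll1 (1.85) and Vpreb1 (0.86), which encode the surrogate light chain of the pre-B cell receptor. The summed level of the list was 669 to 1452 in wild-type and 726 to 1378 in S226A lungs, all 4 of them within the wild-type range. Siglecg, an inhibitory receptor of B cells, measured 43.5, 36.8, 22.7 and 22.4 in the 4 wild-type lungs and 0.889, 0, 3.01 and 0 in the 4 S226A lungs (log2 fold change -4.94, SE 0.66, edgeR adjusted p = 7.1e-06, and a log2 fold change of -6.34 without S226A replicate 3, which held 3 of its 4 counts in that group). Pax5, the factor that fixes B cell identity, had 43 counts against 1, a ratio of 48.0 with a 95% counting interval of 8.17 to 1941 (edgeR adjusted p = 5.1e-04), and wild-type replicate 2 stood above the others, the 4 wild-type lungs being at 7.08, 22.3, 6.48 and 8.27, while the single S226A count was in replicate 3. Ms4a1 (38 counts against 0) was at least 14.2-fold lower and Fcrla (24 against 0) at least 8.94-fold lower, and the call of Ms4a1 was lost with the litter as a block (edgeR adjusted p = 0.059). Counting intervals and floors cover counting error only. Ms4a1 was not called without S226A replicate 2 or 4 (edgeR adjusted p 0.051 to 0.056). Of the counts of Ms4a1, 22 came from wild-type replicate 1. Pou2af1, a B cell coactivator, fell by 3.40 on the log2 scale (edgeR adjusted p = 0.0034). None of 19 T and NK genes passed (lowest edgeR adjusted p = 0.13), and 12 had positive estimates. Their median was 0.61, and 0.16 with the litter as a block. Klrb1c, an NK gene, had 1 count in wild-type and 24 in S226A lungs, a ratio of 21.5 with a 95% counting interval of 3.50 to 883. Likewise Nkg7 had 1 count against 18 and Ncr1 1 against 16. The other 7 had negative estimates, among them Eomes (-2.94) and Gzma (-0.45). With the litter as a block, Rora was called lower (log2 fold change -0.36, edgeR adjusted p = 0.025).

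**Figure D3:**
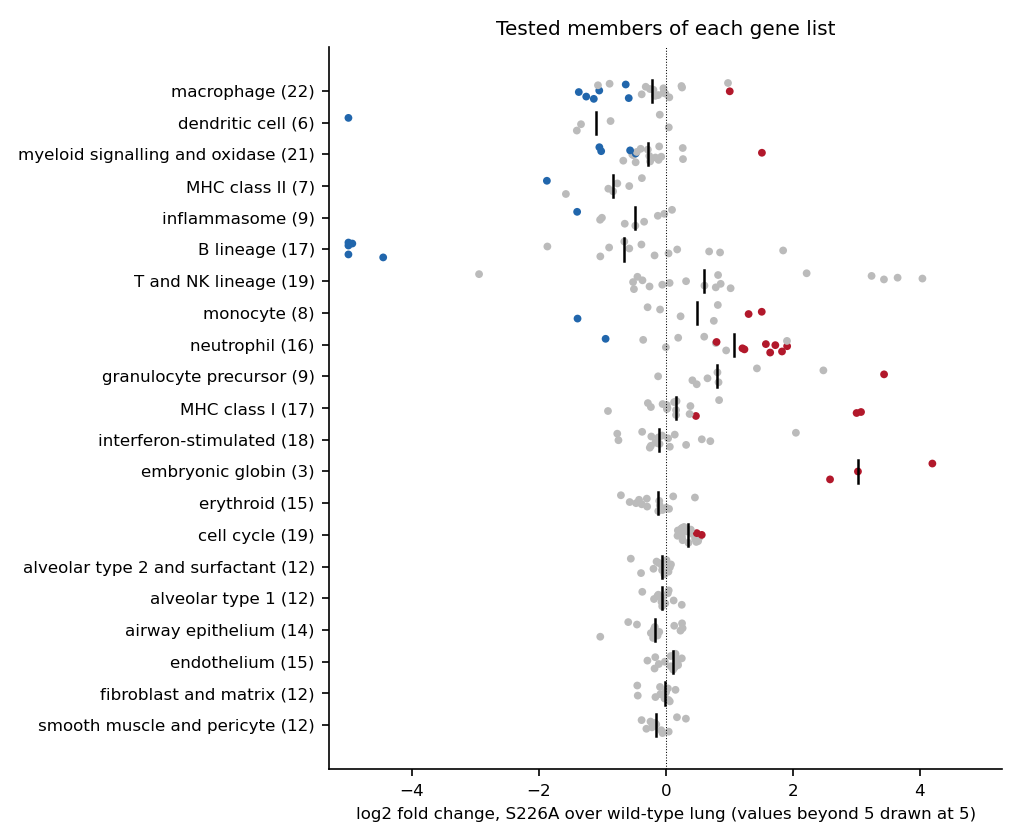
Log2 fold change of S226A over wild-type lung (horizontal axis) for the tested members of 21 gene lists, each point a gene, red where called higher, blue where called lower and grey where not called, with the list median as a bar and the number tested in parentheses. The medians of the neutrophil (1.08) and embryonic globin (3.03) lists lie to the right of 0 and those of the B lineage (-0.65) and macrophage (-0.22) lists to the left, with members on both sides except for the globins, and the members of the epithelial, endothelial and mesenchymal lists are all grey.

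Embryonic globins, which are made by the first red cells from the yolk sac and are replaced by adult globins in the liver, were higher. Hbb-y measured 141, 55.2, 36.7 and 78.0 in the 4 wild-type lungs and 698, 469, 500.1 and 872 in the 4 S226A lungs (log2 fold change 3.03, SE 0.51, edgeR adjusted p = 3.1e-04). Hba-x was at 35.4, 57.2, 30.2 and 75.6 in the 4 wild-type lungs and 236, 279, 262 and 416 in the 4 S226A lungs (log2 fold change 2.59, SE 0.52, edgeR adjusted p = 0.0029), and Hbb-bh1, at 0, 0.969, 1.08 and 2.36 against 25.8, 20.1, 16.1 and 22.3, came from 4 counts in all in wild-type lungs (log2 fold change 4.20, SE 1.00, edgeR adjusted p = 0.018). The 3 genes tested of the 4 listed all passed and their groups were separate. None of 15 other erythroid genes passed, and their median was -0.12 (lowest edgeR adjusted p = 0.45). Hbb-bh1 was not called without wild-type replicate 3 (edgeR adjusted p 0.067). Its log2 fold change was 4.80 without wild-type replicate 4.

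A pair of MHC class I genes of the Q region rose. H2-Q7, which lies at chr17:35439155-35443773, measured 9.10, 5.82, 7.56 and 16.5 in the 4 wild-type lungs and 104, 109, 58.2 and 57 in the 4 S226A lungs (log2 fold change 3.08, SE 0.38, edgeR adjusted p = 1.1e-06). H2-Q6, at chr17:35424850-35430055, measured 4.04, 2.91, 14 and 5.91 against 58.7, 85.4, 39.2 and 33.0 (log2 fold change 3.01, SE 0.44, edgeR adjusted p = 2.5e-05), and the classical gene H2-K1 1613, 1419.9, 1242 and 992 against 2259.5, 2013, 1440.1 and 1619.8 (log2 fold change 0.48, SE 0.13, edgeR adjusted p = 0.047). H2-Q6 and H2-Q7 did not overlap between groups, and H2-K1 did. The log2 fold change of H2-Q6 was 3.64 without wild-type replicate 3. H2-K1 was not called without wild-type replicate 3 or 4 or S226A replicate 1, 2 or 4 (edgeR adjusted p 0.052 to 0.23), nor with no filter on low counts (0.064) or RLE scaling (0.058). H2-Q6 and H2-Q7 are nearly identical genes whose reads the counting could split or share, so their separate values are uncertain. Of 17 class I genes, these 3 passed, 14 did not, and the median was 0.16. The 250 bases before each start (RefSeq, GRCm38.p6) are given because both genes rose together, with their longest shared run, of 66 bases, in capitals. The windows are offset against each other, so that 40 bases at the upstream end of the H2-Q7 window and 39 at the downstream end of the H2-Q6 window have no partner, and over the stretch they share 205 of 210 paired bases (97.6%) were identical, with 1 base unpaired.
H2-Q6 (chr17:35424600-35424849, + strand): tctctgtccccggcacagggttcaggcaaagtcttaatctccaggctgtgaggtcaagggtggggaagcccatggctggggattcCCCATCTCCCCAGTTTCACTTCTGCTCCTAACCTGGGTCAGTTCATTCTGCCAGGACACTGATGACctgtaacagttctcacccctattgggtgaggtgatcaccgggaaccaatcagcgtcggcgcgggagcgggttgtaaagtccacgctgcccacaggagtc
H2-Q7 (chr17:35438905-35439154, + strand): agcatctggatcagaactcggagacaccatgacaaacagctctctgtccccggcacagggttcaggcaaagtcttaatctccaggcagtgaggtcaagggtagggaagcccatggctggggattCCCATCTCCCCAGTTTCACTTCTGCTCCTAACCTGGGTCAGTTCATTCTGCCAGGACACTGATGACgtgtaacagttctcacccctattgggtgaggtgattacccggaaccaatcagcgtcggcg
The MHC region lies beside Daxx, which is at chr17:33909414-33915590. Within 10 Mb of Daxx, 386 genes were tested, 2.29% of all tested, and 9 were called, 2.84% of all called (Def6, Ppard, Pim1, Akap8, Myo1f, H2-K1, H2-DMa, H2-Q6 and H2-Q7). Sequence that stayed with the allele through the crosses cannot be told apart from the allele itself in this design.

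Interferon-stimulated genes, which share regulation with class I genes, did not pass in any of 18 cases (median -0.11, and 0.08 with the litter as a block, lowest edgeR adjusted p = 0.30). Their summed level was 4972 to 11160 in wild-type and 7439 to 8407 in S226A lungs. Of 9 inflammasome genes, Casp1 alone passed, at a log2 fold change of -1.40 (edgeR adjusted p = 0.023, and 0.069 with the litter as a block). Casp1 was not called without wild-type replicate 2 or S226A replicate 1, 2 or 4 (edgeR adjusted p 0.055 to 0.14). With that block Nlrp3 was called lower instead (log2 fold change -1.03, edgeR adjusted p = 0.038).

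Daxx itself measured 703, 602, 624 and 586 in the 4 wild-type lungs and 659, 718, 609.6 and 608 in the 4 S226A lungs, with overlapping groups (log2 fold change 0.04, SE 0.09, edgeR adjusted p = 0.89). Transcript level does not check a codon change, so this value neither tests nor contradicts the labels. It also does not show the level of Daxx protein, which the study reported as lower with S226A and higher with Y130A. Those measurements were made in E18.5 lung and embryonic fibroblasts, with the clearest change in fibroblasts. None of the 14 genes of the list of Daxx and its partners passed, among them Atrx, H3f3a, H3f3b, Hira, Pml and Trim28, with a lowest edgeR adjusted p of 0.16 (Atrx, log2 fold change 0.17).

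The study named 11 genes as higher in liver with both alleles. They were chosen with samples of this series, and the count in lung is no independent evidence of their direction. In S226A lung 2 of the 11 were called higher and 0 lower. Tmem267, a small membrane protein at chr13:119488039-119611059, measured 59.7, 33.9, 40.0 and 78.0 in the 4 wild-type lungs and 209.9, 157, 322 and 267 in the 4 S226A lungs (log2 fold change 2.18, SE 0.44, edgeR adjusted p = 0.0033), and every S226A lung was above every wild-type lung. Atp1b3, a subunit of the sodium pump, measured 1988, 1982, 1685 and 1466 against 3177, 2998, 2607 and 2652 (log2 fold change 0.68, SE 0.10, edgeR adjusted p = 2.4e-05). The other 9 did not pass, and the median of the list was 0.30. Among them Kirrel2 had 0 counts in wild-type and 12 in S226A lungs, at least 3.58-fold higher (edgeR adjusted p = 0.21). Among the 10 highest changes by the stringent criteria was also Mgam, an intestinal-type glucosidase also found in neutrophils, at 0, 17.4, 10.8 and 18.9 against 64.9, 67.3, 32.1 and 33.0 (log2 fold change 2.08, SE 0.37, edgeR adjusted p = 7.8e-04). Iqcm, a gene of unknown role chosen after its values were seen, had 1 count in wild-type and 137 in S226A lungs, a ratio of 123 with a 95% counting interval of 21.6 to 4878, the single count being in wild-type replicate 4 (edgeR adjusted p = 0.0094).

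Structural cells of the lung were described by 7 lists. None of 12 alveolar type 2, 12 alveolar type 1, 14 airway, 15 endothelial, 12 fibroblast, 12 smooth muscle and 5 mesothelial genes passed, beside 1.88% of all genes tested, a share at which lists of these sizes would hold few calls. Their list medians lay between -0.17 (airway) and 0.12 (endothelium), and the lowest adjusted p was 0.21, in the alveolar type 2 list. Sftpb, a surfactant protein without which newborn lungs collapse, measured 19950, 15102, 26828 and 28432 against 19000, 13594, 16910 and 19477 (log2 fold change -0.39, SE 0.22, edgeR adjusted p = 0.39). Hopx, an alveolar type 1 factor, measured 6250.0, 6737, 4738 and 4294 against 6775, 5993, 5416 and 8061 (log2 fold change 0.25, SE 0.21, edgeR adjusted p = 0.61). The 2 groups overlapped for both. With the litter as a block, 1 airway gene (Scgb3a1, a secretoglobin) was called lower (log2 fold change -1.32, edgeR adjusted p = 0.038).

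All 19 cell cycle genes had positive estimates, from 0.19 to 0.57 on the log2 scale, with a median of 0.36. Only Birc5 (survivin) and Ccna2 (cyclin A2) passed, at edgeR adjusted p = 0.044 and 0.041, whereas 10 of the 19 were called higher with the litter as a block and 0 with the 8 lungs alone. Ccna2 measured 1123, 1368, 674 and 988 in the 4 wild-type lungs and 1395, 1797, 1290.4 and 1358 in the 4 S226A lungs, with overlapping groups. Birc5 was not called without wild-type replicate 3 or 4 or S226A replicate 2 or 4 (edgeR adjusted p 0.065 to 0.27), nor with the GC correction (0.086) or no filter on low counts (0.056). Ccna2 was not called without wild-type replicate 3 or 4 or S226A replicate 1, 2 or 4 (edgeR adjusted p 0.054 to 0.27), nor with the GC correction (0.067) or no filter on low counts (0.054). Cdc7, a kinase that starts replication and was chosen after its values were seen, measured 286, 414, 339 and 349 against 494, 647, 538 and 628 (log2 fold change 0.73, SE 0.11, edgeR adjusted p = 4.5e-05), without overlap. Cdc7 was not called with the 8 lungs alone (edgeR adjusted p 0.115). Of 63 replication-dependent histones 1 passed (Hist1h2ao, 1 count against 35, a ratio of 31.3 with a 95% counting interval of 5.27 to 1272), and the list median was 0.19. The maintenance methyltransferase Dnmt1 was at a fitted 1.22 times the wild-type level, with overlapping groups (edgeR adjusted p = 0.045). Dnmt1 was not called without wild-type replicate 1 or 3 or S226A replicate 2 or 4 (edgeR adjusted p 0.075 to 0.26), nor with no filter on low counts (0.062) or RLE scaling (0.054). Hist1h2ao was not called without S226A replicate 2 (edgeR adjusted p 0.11). Its single wild-type count was in replicate 3, and 22 of the S226A counts were in replicate 2.

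Immediate early genes, which respond within minutes to handling as well as to signals, all had negative estimates in S226A lung, with a median of -1.05. Of 12, only Atf3 passed, at 154, 306, 314 and 100.4 in the 4 wild-type lungs and 104, 103, 72.3 and 83.8 in the 4 S226A lungs (log2 fold change -1.27, edgeR adjusted p = 0.031, and 0.056 with the litter as a block, which ends the call). Atf3 was not called without wild-type replicate 3 or S226A replicate 2, 3 or 4 (edgeR adjusted p 0.064 to 0.16). The wild-type lungs varied widely for this gene, and the groups overlapped. Of lists for p53 targets (15 genes), glucocorticoid response (8), hypoxia (10), heat shock (6), megakaryocytes (8), germline (5) and mitochondrially encoded genes (12), 0 members passed. With the litter as a block, 1 p53 target (Sesn2, log2 fold change -0.39, edgeR adjusted p = 0.031) and 1 glucocorticoid gene (Per1, -0.43, edgeR adjusted p = 0.031) were called lower. The lists of neighbouring tissues (cardiac and skeletal muscle, cartilage, thymus, squamous epithelium, hepatocyte, neuron and thyroid) and the 5 genes that differ between C57BL/6 substrains also held 0 called genes, at a lowest edgeR adjusted p of 0.19.

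Whether these changes differed from those of the other allele was tested by the interaction with Y130A lung (4 Y130A and 3 wild-type lungs from other litters, with deeper libraries of 36351738 to 49731811 counts). The alleles also differed in Daxx protein level by the study, so a difference cannot be assigned to H3.3 binding alone. Y130A lung itself had 3 called genes (0.0178%), 2 higher (0.0118%) and 1 lower (0.00592%). The effect differed between the alleles for 52 genes (0.308%), 20 higher (0.118%) and 32 lower (0.189%) in S226A lung, and for 124 genes with the litter as a block. Of the 317 genes called in S226A lung, 48 differed, 18 of the higher and 30 of the lower genes. Csf1r was at 927 ± 47.8 (SD, n = 4) in Y130A and 926 ± 59.4 (SD, n = 3) in its wild-type lungs, and its effect differed between the alleles (edgeR adjusted p = 6.5e-09). S100a9 had a log2 fold change of 0.25, SE 0.25, adjusted p = 1.0 by edgeR in Y130A lung, and the difference from S226A lung had an edgeR adjusted p of 0.023. For Hbb-y the Y130A value was -0.86 (edgeR adjusted p of the difference 0.0042) and for H2-Q7 -0.47 (edgeR adjusted p of the difference 1.3e-04), whereas H2-Q6 was at 1.74 and did not pass (edgeR adjusted p of the difference 0.64). Tmem267 rose in Y130A lung too (2.57, SE 0.47, adjusted p = 0.025 by edgeR), and the 2 effects did not pass the test of a difference (edgeR adjusted p = 0.93, difference -0.39, SE 0.62). For the remaining 269 genes a difference between alleles was not detected, which does not show that the alleles act alike.

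The S226A allele was also measured in liver and brain of the same litters, mostly from the same embryos. S226A liver had 1972 called genes (11.7%), 6.14% higher and 5.54% lower, and S226A brain 41 (0.243%), 0.0592% higher and 0.184% lower. The lung effect differed from that in liver for 1165 genes (6.9%), 2.79% with the higher value in lung and 4.11% with the lower, among them 146 of the 317, 49 of the higher and 97 of the lower genes. Of the 144 genes higher in lung, 32 were also called higher in liver and 7 were called lower there. Of the 173 genes lower in lung, 21 were also called lower in liver and 38 were called higher there.

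The direction in liver divided the myeloid genes. Csf1r was lower in liver (-1.61, SE 0.073, adjusted p = 6.8e-20 by edgeR) and in brain (-1.52, SE 0.079, adjusted p = 1.2e-17), and S100a9 was higher in liver (1.46, SE 0.23, adjusted p = 1.0e-05). Neutrophil genes were called higher in liver for 13 of 16 members, against 8 in lung, and macrophage genes lower for 18 of 22, against 6 in lung. Cybb, lower in lung, was higher in liver (1.04, SE 0.14, adjusted p = 1.1e-06, edgeR adjusted p of the difference 3.3e-09), and the same held for Coro1a, Itgb2, Olr1, Fpr2 and Csf2rb. Of the genes picked because they rose in lung, Hmox1 had a log2 fold change of -0.61, SE 0.11, adjusted p = 6.1e-05 in liver by edgeR, Fcna of -2.46, SE 0.22, adjusted p = 3.3e-11, Spic of -1.05, SE 0.34, adjusted p = 0.035, Slc40a1 of -0.55, SE 0.11, adjusted p = 4.2e-04 and Cd5l of -1.65, SE 0.25, adjusted p = 6.8e-06. For these 5 genes the difference between the tissues passed the test, with an edgeR adjusted p of 0.0018 for Spic and lower values for the others. Cd163, lower in lung, was lower in liver by more (-5.33, SE 0.40, adjusted p = 3.6e-13, edgeR adjusted p of the difference 4.8e-07). Of the embryonic globins, 0 were called higher in liver, where Hbb-y was at -1.49, SE 0.52, adjusted p = 0.053 by edgeR and Hba-x at -1.73, SE 0.52, adjusted p = 0.022.

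**Figure D4:**
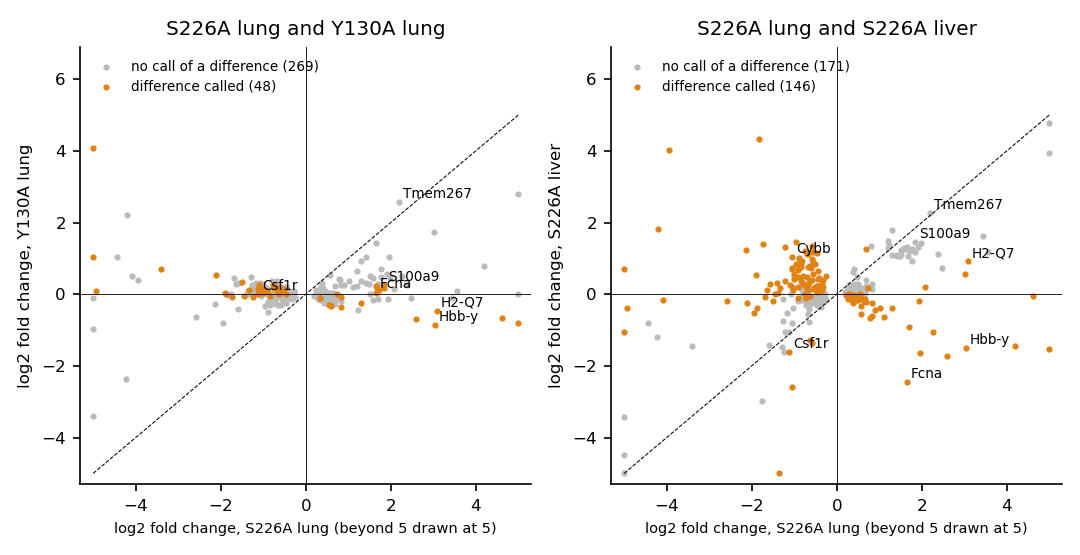
Log2 fold changes of the 317 genes called in S226A lung (horizontal axis) against those in Y130A lung (left) and S226A liver (right), each point a gene, orange where the 2 effects differed at an adjusted p below 0.05, with the line of equal change dashed. The genes differing are 48 of 317 on the left and 146 of 317 on the right, where many genes lower in lung lie above 0. The genes were chosen by the values on the horizontal axis.

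In brain the calls were few. The embryonic globins had positive estimates there that did not pass, with a median of 2.55: Hbb-y was at 2.23, SE 0.76, adjusted p = 0.87 and Hba-x at 3.27, SE 1.07, adjusted p = 0.68 by edgeR, and neither effect passed the test of a difference from lung (edgeR adjusted p = 0.93 and 0.96). The lung effect differed from that in brain for 21 genes (0.124%), 15 of them among the 317, and 7 of the higher and 13 of the lower lung genes were also called in the same direction in brain, with 0 in the opposite direction. Marco was at 0 in all 4 wild-type brains and at 8.02 to 32.0 normalized counts in the 4 S226A brains. Its fitted fold change was larger in brain than in lung (edgeR adjusted p of the difference 0.0042). Against wild-type values of 0 the brain fold change has no finite value, so this does not compare the rise in counts. H2-Q7 had a log2 fold change of 0.20 and H2-Q6 at -0.11 in brain, and both differed from lung (edgeR adjusted p = 0.0084 and 0.012). Siglec1, lower in lung, differed as well (log2 fold change 1.21 in brain, edgeR adjusted p of the difference 0.026).

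**Figure D5:**
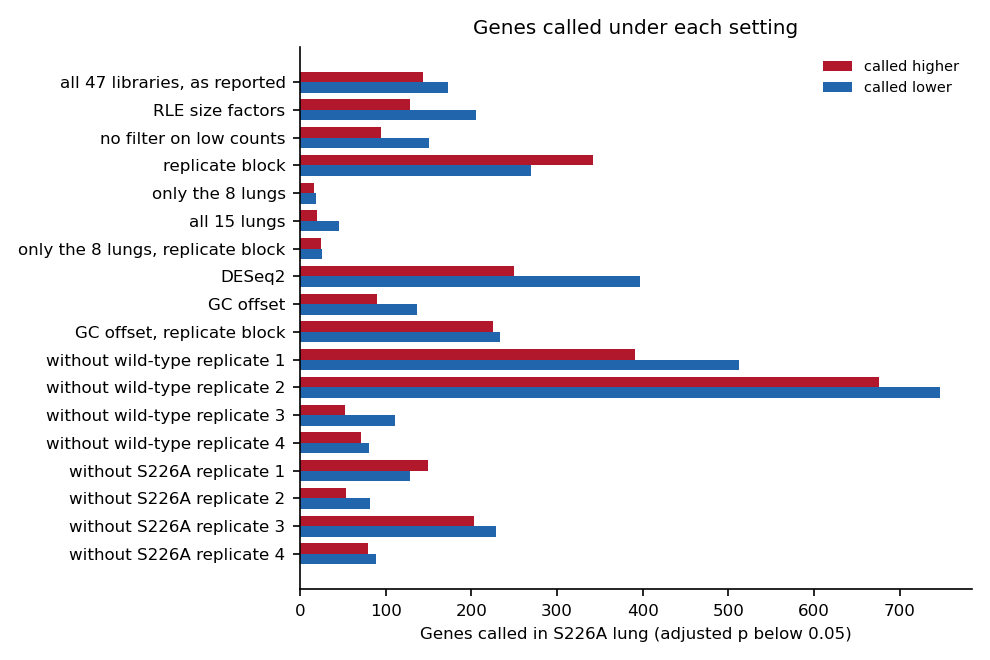
Number of genes called higher (red) and lower (blue) in S226A lung under each fit (bars start at 0). The count ranges from 34 with only the 8 lungs to 1423 without wild-type replicate 2, with 317 in the fit of all 47 libraries.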

How the data were processed

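RNA was extracted with TRIzol from flash-frozen lung, liver and brain and sequenced. Per the labels and the study's methods, the authors trimmed reads with Trim Galore 0.6.5, checked them with FastQC 0.11.5, aligned them to GRCm38 with STAR 2.6.0b and deposited raw gene counts of 47 libraries, without normalization. Whether counting used strand is not given in the sources used here. Transposable elements were not analysed here. Gene positions came from GENCODE M21 (20424 of 20456 genes matched) and promoter sequences from RefSeq (GRCm38.p6).

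Counts were tested with edgeR 4.0.16 in R 4.3.3 by the quasi-likelihood test, with TMM scaling and filterByExpr (minimum count 10, minimum total 15). All 47 libraries were fitted with 12 groups of tissue, genotype and litter set (35 residual degrees of freedom), with Benjamini-Hochberg adjustment across the 16892 genes tested. SEs were derived from the log2 fold change and the F statistic. Normalized counts were scaled to a library of 21565727. Differences from Y130A lung, S226A liver and S226A brain were interaction contrasts. Counts of at most 3 were given as ratios with exact 95% counting intervals, and a group at 0 was set at 3 counts over the group. On simulated counts for the lung comparison (16808 genes), 74% of 2-fold and 93% of 4-fold changes were recovered at an adjusted p below 0.05, with 12 false calls. These counts were drawn from the dispersions of the fit itself, equal in both groups and without litter or GC effects. Changes were placed only in genes above a minimum mean count in lung. The rates therefore do not describe genes with few counts or the unequal spread of these lungs.

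Litters paired the samples by the labels. Deviations from the group means correlated at 0.0095 to 0.185 within litters, over 0.1 in 3 of 4, and at -0.18 to 0.11 between litters. The wild-type embryo that gave the lung of litter 4 did not give that litter's liver and brain. Each library was 1 embryo, and no pair of lungs within a group agreed within sampling noise.

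Gene lists, named genes and the comparison itself were chosen with earlier results of these data known. Named genes were Daxx and its partners, the 10 highest and 10 lowest stringent changes without overlap, up to 4 members of each list with the lowest p and further called members, the 11 genes of the study's list, and the 3 highest and 3 lowest differences per interaction. A further 31 were added after their values were seen. Some genes that the rule names are not reported here. Alternatives were RLE scaling, no filter, a litter block, only the 8 lungs, all 15 lungs, DESeq2 1.42.0 and each library left out. A correction for GC content, alone and with the block, and the 15-lung fit of the difference from Y130A lung were chosen after seeing the data.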

Additional observations from a re-analysis of the deposited data

Results flagged for a closer look

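The effect of S226A in lung differed from that of Y130A in lung for 52 genes, from that of S226A in liver for 1165 genes and from that of S226A in brain for 21 genes, each by the interaction test of edgeR at an adjusted p below 0.05. The lung and liver effects come largely from the same embryos, and the libraries of the Y130A litters were deeper, at 36351738 to 49731811 counts in lung. The 6 genes with the most extreme differences from Y130A lung among those called in S226A lung were Baat, Fcrla and Siglecg (lower) and Rbm11, Hist1h2ao and Hbb-y (higher). Rbm11 had 0 counts in wild-type and 25 in S226A lungs, a level at least 7.46-fold higher, and Baat had 26 against 0, at least 9.68-fold lower. Against liver they were Otx1, Baat and Gal (lower in lung) and Prss41, Hbb-bh1 and Hist1h2ao (higher). Otx1, a developmental homeobox factor, measured 28.3, 24.2, 16.2 and 9.45 against 0.889, 0, 4.02 and 0 in lung (log2 fold change -3.96, SE 0.85, edgeR adjusted p = 0.0094, and a log2 fold change of -5.66 without S226A replicate 3) and was at 0 in the 4 wild-type livers and at 0 to 5.34 in the 4 S226A livers. Against brain they were Marco, Pax5 and Siglec1 (lower) and H2-Q6, H2-Q7 and Itgam (higher).

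One library stood apart from the other 3 of its group in 6 of 128 groups examined, with a gap to its nearest neighbour larger than 0.829 of the group's range. Chance gives about 1 in 20. Pax5 was high in 1 wild-type lung (gap of 0.887 of the range) and was at 0 in all S226A lungs but 1 (1.0). The mean log2 level of the alveolar type 1 list was low in 1 wild-type lung (0.878), as was that of the skeletal muscle list (0.844). The thymus list was high in 1 S226A lung (0.913), as was the thyroid list (0.855). None of these 4 lists held a called gene. Tnrc18, chosen after its values were seen, measured 2322, 1816, 5295 and 8176 against 2192, 2455, 2943 and 2330.0 (log2 fold change -0.83, SE 0.22, edgeR adjusted p = 0.044, and 0.11 with the litter as a block), with wild-type lungs on both sides of the S226A range.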

How the results depend on the processing

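Against 317 genes called, the count was 612 with the replicate block, 34 with only the 8 lungs, 49 with these and the block, 65 with all 15 lungs, 647 with DESeq2, and 135 to 1423 with 1 library left out (903 without wild-type replicate 1, 163 without 3, 151 without 4 and 168 without S226A replicate 4). RLE scaling gave 333, no filter 245, and the GC correction 227, or 458 with the block. Against 51 genes under the stringent criteria, the count was 8 with only the 8 lungs, 20 with these and the block, 24 with all 15 lungs, 80 with DESeq2 and 38 to 81 with 1 library left out. Against 52 genes differing from Y130A lung, the count was 124 with the replicate block, 133 with the GC correction and block, 12 with all 15 lungs, 192 with DESeq2 and 32 to 175 with 1 library left out. Against 21 genes differing from brain, it was 59 with DESeq2 and 13 to 57 with 1 library left out. The count differing from liver stayed within 1.5 times of 1165 in every alternative that could give it. Of the 317 genes, 89 were called in all 8 fits with 1 library left out and 26 in every alternative, and none changed sign. With the block, 6 named genes lost their call (Atf3, BC117090, Casp1, Fpr2, Ms4a1 and Tnrc18) and 9 gained one (Aurkb, H2-Aa, Ly6c2, Nlrp3, Per1, Rora, Scgb3a1, Sesn2 and Top2a). The causes were not tested. The fits of the 8 and the 15 lungs differed from the main fit in several ways at once. They had fewer residual degrees of freedom, took their dispersions from lung libraries alone and tested 14624 and 15370 genes. Outside the called genes signs did change: the median of the interferon-stimulated list was -0.11 and 0.08 with the replicate block. Lungs of 4 embryos a group and 15722147 to 21512763 counts limit what can be seen of small changes and of genes with few counts.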
